A study of Homo sapiens with 23 samples.

Results

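The HSP70 and HSP110 chaperone genes were followed in HEK293T cells (human embryonic kidney) after delivery of plasmid DNA on a cationic polymer. The family was taken as every probe set whose gene symbol in the deposited tables was HSPA1A, HSPA1L, HSPA2, HSPA4, HSPA4L, HSPA6, HSPA8, HSPA9, HSPA13 or HSPH1. This gave 23 of the 54675 probe sets on the arrays, for 10 genes. By their known regulation the genes fall into 3 heat-inducible genes (HSPA1A, HSPA6 and HSPH1, 5 probe sets), 4 constitutive genes (HSPA8, HSPA9, HSPA4 and HSPA13, 14 probe sets) and 3 genes known mostly from testis (HSPA1L, HSPA2 and HSPA4L, 4 probe sets). The brightest probe set of a gene among those with its symbol, by its mean over the 17 arrays of 2, 8 and 16 h, is called its lead probe set. A further 2 probe sets without a symbol, 200800_s_at and 202581_at, carry the transcript accessions of HSPA1A and of its near-identical neighbour HSPA1B. They lie outside the symbol rule, were chosen after their values were seen, and are kept apart from all counts. Because the coding sequences of HSPA1A and HSPA1B are nearly the same, which copy any of these probe sets reports is uncertain.

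The polymer was branched polyethylenimine (bPEI), mixed with the plasmid pEGFP-LUC into particles called polyplexes. The 23 arrays form 8 groups. At 2 h, untreated cells (2 arrays) and polyplex-treated cells (3 arrays) were harvested. At 8, 16 and 24 h, treated cultures were separated by flow cytometry into cells with GFP fluorescence (GFP-positive, 3 arrays per time) and cells without it (GFP-negative, 3 arrays per time), so both sorted populations had met the polyplexes and no untreated cells are compared at those times. For these times, rose and fell mean higher and lower in GFP-positive than in GFP-negative cells. Which of the groups moved from the untreated level cannot be told. All cells were of the same line, which carries the SV40 large T antigen. The labels speak of biological replicates and the design text of repeats on 3 days, but no label gives an array its day or its culture. The p-values therefore measure the spread between these arrays, which may be technical.

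HSP70 proteins bind unfolded stretches of other proteins and release them in a cycle driven by ATP. J-domain proteins bring clients and start ATP hydrolysis, and nucleotide exchange factors, among them the HSP110 proteins HSPH1, HSPA4 and HSPA4L, reset the cycle. HSPA8 is the abundant constitutive form of the cytosol, HSPA9 (mortalin) works in mitochondria, and HSPA13 is found in the endoplasmic reticulum. HSPA1A, HSPA1B and HSPA6 are classic targets of the heat shock factor HSF1, which binds heat shock elements, alternating repeats of GAA and TTC units.

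The sequences before the start sites of 4 genes are shown because the members compared here differ in these elements: HSPA1A and HSPA6 are inducible genes with a match, HSPA8 is a constitutive gene with several, and HSPH1 is an inducible gene with none in the window. Each line gives the 250 bases upstream of the RefSeq start site on GRCh38.p14, written 5′ to 3′ on the strand of the gene. Capitals mark matches to GAANNTTC or TTCNNGAA (2 units), or to the 3-unit forms, in which a further alternating unit follows either of these after any 2 bases, so that they contain the 2-unit forms; each search covered both strands. HSPA1A lies at chr6:31815293-31815542 (plus strand), HSPA6 at chr1:161524290-161524539 (plus strand), HSPA8 at chr11:123062137-123062386 (minus strand) and HSPH1 at chr13:31162389-31162638 (minus strand).
HSPA1A: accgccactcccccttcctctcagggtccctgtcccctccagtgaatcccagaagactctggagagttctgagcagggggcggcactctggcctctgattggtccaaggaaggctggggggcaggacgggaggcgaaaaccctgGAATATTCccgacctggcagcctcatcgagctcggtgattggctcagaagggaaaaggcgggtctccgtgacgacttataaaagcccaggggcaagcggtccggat
HSPA6: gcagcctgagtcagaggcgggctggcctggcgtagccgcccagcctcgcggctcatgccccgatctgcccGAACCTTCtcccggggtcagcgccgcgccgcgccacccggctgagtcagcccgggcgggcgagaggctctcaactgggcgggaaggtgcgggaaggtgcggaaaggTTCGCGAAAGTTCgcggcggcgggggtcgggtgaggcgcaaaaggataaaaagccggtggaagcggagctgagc
HSPA8: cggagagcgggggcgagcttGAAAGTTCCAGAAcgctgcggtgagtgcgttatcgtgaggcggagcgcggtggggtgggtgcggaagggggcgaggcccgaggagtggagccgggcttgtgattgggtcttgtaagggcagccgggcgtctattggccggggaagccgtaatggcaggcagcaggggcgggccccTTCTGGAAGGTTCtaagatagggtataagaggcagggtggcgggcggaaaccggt
HSPH1: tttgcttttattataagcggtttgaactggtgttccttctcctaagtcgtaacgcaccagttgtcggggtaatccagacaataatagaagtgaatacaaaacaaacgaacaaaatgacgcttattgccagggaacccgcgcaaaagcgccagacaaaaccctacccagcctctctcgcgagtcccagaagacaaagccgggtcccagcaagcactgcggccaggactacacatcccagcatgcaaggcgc

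HSPA1A had 1 match of 2 units, from -106 to -99 relative to the start site. HSPA6 had 3 matches of 2 units, of which an overlapping pair formed a 3-unit element from -74 to -62. HSPA8, a constitutive member, had 4 matches that formed 2 elements of 3 units, from -230 to -218 and from -55 to -43. Among 35116 RefSeq promoter windows of the same length, 11.6% held a 2-unit match and 0.441% a 3-unit match. HSPA1L starts 260 bases from HSPA1A on the opposite strand, so the same element stood in its window from -161 to -154. The upstream windows of HSPA1A and HSPA1B were identical at 235 of 250 bases, with 14 mismatches and 2 gap positions. HSPA4L had 1 match in 1 of its 3 windows, and no match was found in the windows of HSPH1, HSPA2, HSPA4, HSPA9 and HSPA13, which says only that these letters do not occur there.

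**Figure D1:**
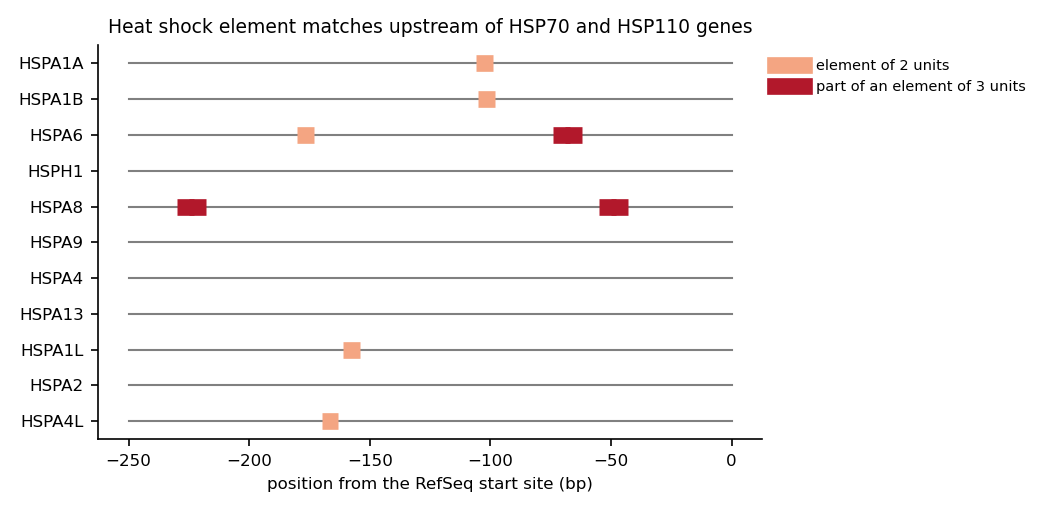
Heat shock element matches in the 250 bases before the RefSeq start site, one line per gene, with the position from the start site in base pairs on the x axis. Pale boxes are 2-unit matches and dark boxes belong to 3-unit elements; HSPA6 and HSPA8 hold 3-unit elements, and HSPA1A, HSPA1B, HSPA1L and HSPA4L hold 2-unit matches.

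Values are log2 expression as deposited. Array medians lay between 4.66 and 5.10 and grouped by time, so levels are compared within a time and within a probe set. A marker was counted as above the array median where its group mean exceeded the lowest median of the group's arrays. For PAX2 in GFP-negative cells at 16 h, that mean of 5.09 lay among medians of 5.06 to 5.10. By this rule HEK293 markers listed for this work lay above the array median for 10 of 10 genes in 7 groups and for 9 of 10 in GFP-positive cells at 16 h. Of the markers of other cell types, 0 of 2 hepatocyte and 1 of 3 endothelial genes lay above it in every group, 1 or 2 of 6 stromal genes, and 2 of 6 haematopoietic genes except in GFP-positive cells at 8 h, where 3 did. Of the BioB hybridization control, GFP-negative arrays at 16 h read 8.27 to 8.66 and GFP-positive arrays 5.89 to 6.14, so this control separated the groups compared there. At 2 h, BioB read 8.38 in untreated replicate 2 and 5.53 to 6.03 in the other 4 arrays. At 8 h it read 5.24 to 6.06, with overlapping groups. The difference between 3′ and 5′ actin probe sets, a sign of RNA quality, was 2.68 in treated replicate 1 at 2 h against 1.23 to 1.44 in the other 2 h arrays. The title of GFP-positive replicate 3 at 8 h and its source name, which states 16 h, are at odds, and it was kept at 8 h.

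In the first hours after polyplex delivery, no family probe set with a symbol passed the test, and the 2 probe sets of HSPA1A and HSPA1B without a symbol fell. At 2 h, 200800_s_at read 12.54 and 12.46 in untreated cells and 11.67, 11.85 and 11.70 in treated cells. Both untreated arrays lay above all 3 treated arrays. It fell by 0.76 on the log2 scale, to a treated level 1.69-fold lower (SE 0.138; limma, adjusted p = 0.0202 over all 54675 probe sets with the 17 arrays of 2, 8 and 16 h in 1 fit; adjusted p = 0.101 with all 23 arrays). For 202581_at the values were 12.26 and 12.38 in untreated cells and 11.67, 11.84 and 11.75 in treated cells, again without overlap. It fell by 0.56 (SE 0.103; limma, adjusted p = 0.0202, and 0.04996 with all 23 arrays). Without treated replicate 1, treated replicate 3 or untreated replicate 2 neither probe set passed, and without untreated replicate 1 the former did not (lost calls at limma adjusted p from 0.0514 to 0.279, log2 from -0.80 to -0.50). The part of the BioB and actin differences of 2 of these arrays, given above, in these values was not tested.

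The HSPA1A probe set with a symbol, 200799_at, whose values lay near the array medians, gave 4.97 and 5.23 in untreated and 4.26, 4.36 and 4.55 in treated cells. Here too all treated arrays lay below both untreated ones, with a log2 difference of -0.71 (SE 0.185, 95% interval -1.10 to -0.32) that did not pass (limma, adjusted p = 0.105; 0.528 with all 23 arrays). HSPA6, the strictly heat-inducible member, gave 5.51 and 4.94 untreated and 4.94, 4.94 and 4.75 treated at its lead probe set 213418_at, which overlapped. HSPH1 gave 11.38 and 11.57 untreated and 11.16, 11.32 and 11.38 treated at 206976_s_at, which also overlapped. All 5 inducible probe sets had a negative log2 difference at 2 h, from -0.71 to -0.19. The median over the 3 lead probe sets of inducible genes was -0.35, against -0.02 for the 4 constitutive genes, -0.08 for the 3 testis genes and -0.003 for all 20066 genes. The -0.35 is that of HSPA6 at 213418_at, whose group means of 5.22 and 4.87 also lay near the array medians.

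Across the family at 2 h, 0 of 23 probe sets passed in limma, where 0.545% of all probe sets did, and 0 passed with all 23 arrays, where 0.196% did. An unadjusted p under 0.05 was found for 2 of the 23, against 9.72% of all probe sets. Treated arrays lay wholly below untreated ones for 8 of the 23 and wholly above for 1, against 10.3% and 9.56% of all probe sets. The 8 included all 4 HSPA8 probe sets, which report the same gene and are not independent. HSPA8 at 224187_x_at read 13.30 and 13.32 untreated and 13.16, 13.22 and 13.19 treated, a log2 difference of -0.12 (SE 0.0852, 95% interval -0.30 to 0.06). HSPA4, an HSP110-type exchange factor, was the gene whose probe set 211015_s_at lay higher without overlap, by 0.07.

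At 8 h the inducible HSP110 gene HSPH1 was higher in GFP-positive than in GFP-negative cells at both of its probe sets, and HSPA9 was higher at 1 of its 4. HSPH1 at 206976_s_at read 10.95, 11.03 and 10.93 in GFP-positive cells and 10.55, 10.11 and 10.55 in GFP-negative cells. Every GFP-positive array lay above every GFP-negative one. The difference was 0.57 log2 units, or 1.48-fold (SE 0.110; limma, adjusted p = 0.00545; 0.114 with all 23 arrays). At 208744_x_at HSPH1 read 10.24, 10.42 and 10.12 in GFP-positive cells and 9.75, 9.51 and 9.36 in GFP-negative cells, also without overlap. This was 0.72 log2 units, or 1.65-fold (SE 0.191; limma, adjusted p = 0.0313; 0.119 with all 23 arrays). In the fits that left out 1 array each, 206976_s_at passed every time (log2 0.42 to 0.64). The call at 208744_x_at was lost without GFP-positive replicate 1 or 2 or GFP-negative replicate 2 or 3 (limma adjusted p from 0.0691 to 0.123, log2 from 0.63 to 0.73).

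**Figure D2:**
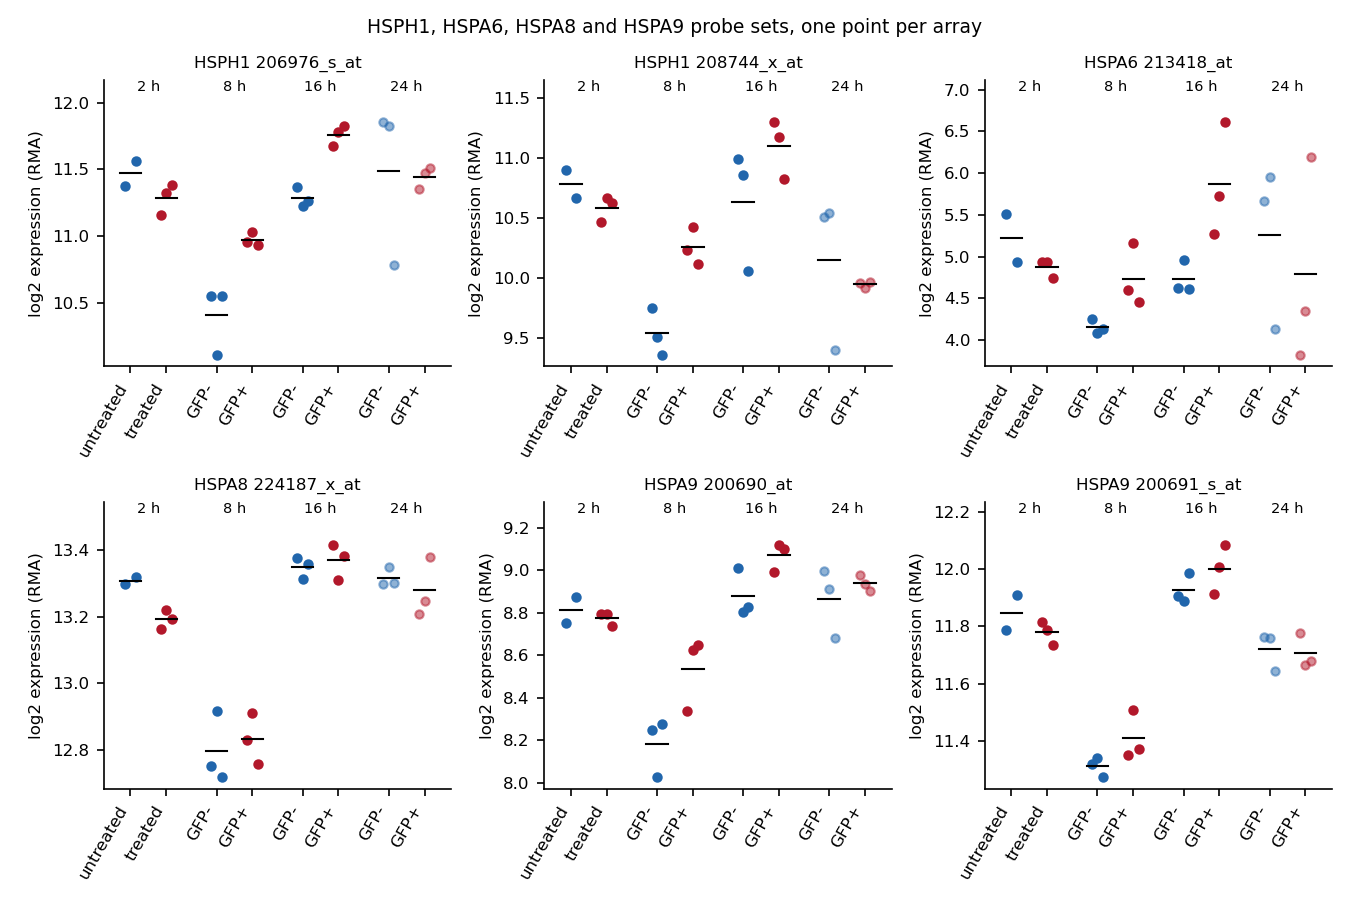
Log2 expression of HSPH1, HSPA6, HSPA8 and HSPA9 probe sets, one point per array, with group means as bars; the y axes differ and do not start at 0, and levels are comparable only within a time. GFP-positive cells lie above GFP-negative cells for HSPH1 206976_s_at at 8 and 16 h (n = 3 arrays per group), whereas the HSPA8 groups overlap at both times; the pale 24 h points are grouped as labelled.

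HSPA1A at 200799_at read 4.999, 4.89 and 4.90 in GFP-positive cells and 4.68, 4.59 and 3.96 in GFP-negative cells at 8 h. The groups did not overlap, and GFP-negative replicate 3 was the lowest. The difference of 0.52 (SE 0.165, 95% interval 0.17 to 0.87) did not pass (limma, adjusted p = 0.0694; 0.324 with all 23 arrays). Replicate numbers paired the 8 h arrays, and blocking on the replicate number brought this probe set past the threshold (adjusted p = 0.0201). Without GFP-negative replicate 1 it also passed (limma adjusted p = 0.0385, log2 0.66). The probe sets of HSPA1A and HSPA1B without a symbol were both higher in GFP-positive cells. 200800_s_at read 12.52, 12.43 and 12.15 in GFP-positive cells and 11.95, 12.02 and 11.47 in GFP-negative cells, a difference of 0.55 (SE 0.124; limma, adjusted p = 0.0125; 0.0766 with all 23 arrays). 202581_at read 12.02, 12.09 and 11.92 against 11.77, 11.78 and 11.46, a difference of 0.34 (SE 0.0923; limma, adjusted p = 0.0333; 0.0872 with all 23 arrays). For both, the GFP-positive arrays all lay above the GFP-negative ones. Both calls were lost without GFP-positive replicate 1 or 2 or GFP-negative replicate 3 (limma adjusted p from 0.0507 to 0.149, log2 from 0.24 to 0.52).

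HSPA6 at 213418_at read 4.59, 5.16 and 4.45 in GFP-positive cells and 4.25, 4.08 and 4.13 in GFP-negative cells at 8 h. These groups did not overlap either, but the difference of 0.58 (SE 0.252) did not pass (limma, adjusted p = 0.193). Its other probe set, 117_at, differed by 0.18.

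**Figure D3:**
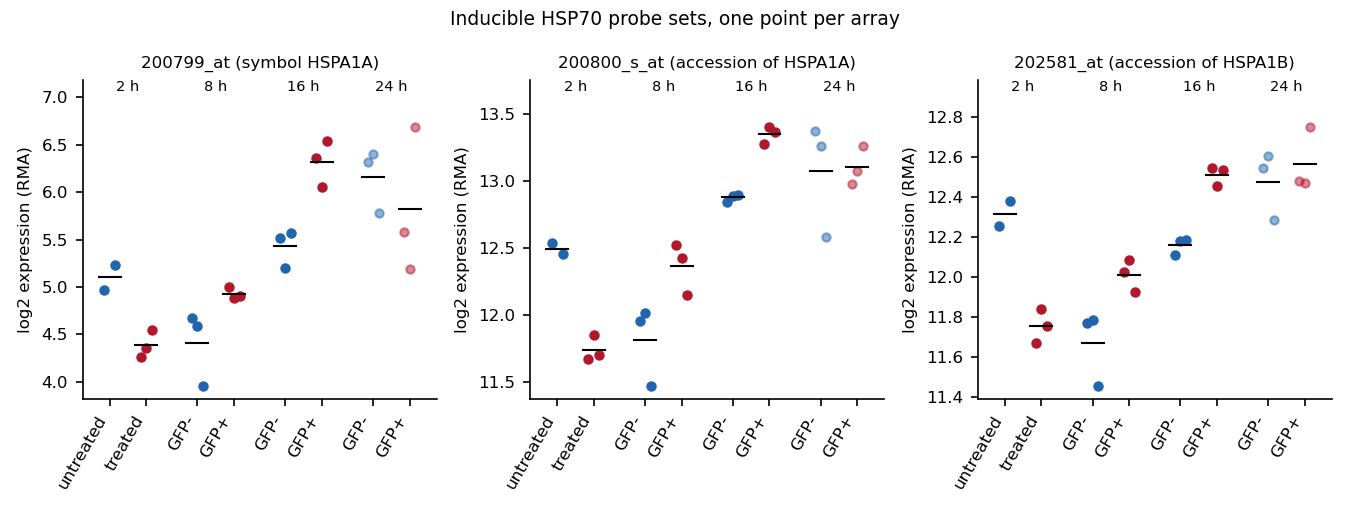
Log2 expression of the 3 probe sets of HSPA1A and HSPA1B, one point per array, with group means as bars; the y axes differ and do not start at 0, and levels are comparable only within a time. At 2 h the treated arrays (n = 3) lie below the untreated ones (n = 2), and at 8 and 16 h the GFP-positive arrays lie above the GFP-negative ones (n = 3 each); the pale 24 h points overlap as labelled.

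Among constitutive members, HSPA9 at 200690_at read 8.34, 8.62 and 8.65 in GFP-positive cells and 8.25, 8.03 and 8.28 in GFP-negative cells at 8 h. The GFP-positive values were all higher, by 0.35 on average (SE 0.0983; limma, adjusted p = 0.0387; 0.0691 with all 23 arrays). This call was lost with the replicate block (adjusted p = 0.0633) and without any 1 of the arrays other than GFP-positive replicate 1 (limma adjusted p from 0.0507 to 0.150, log2 from 0.28 to 0.40). The other HSPA9 probe sets did not pass. The lead one, 200691_s_at, differed by 0.10 (95% interval -0.06 to 0.26).

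HSPA8 read 12.83, 12.91 and 12.76 in GFP-positive cells and 12.75, 12.92 and 12.72 in GFP-negative cells at 224187_x_at. The groups overlapped at all 4 HSPA8 probe sets, with log2 differences from 0.01 to 0.07 and 95% intervals within -0.16 and 0.29. The lead probe sets of HSPA4 and HSPA13 differed by 0.13 (SE 0.0822) and 0.09 (SE 0.0861), and neither passed. Of the testis members, HSPA4L differed by 0.21 (SE 0.124), HSPA2 by -0.23 (SE 0.128) and HSPA1L by 0.04 (SE 0.0979), all without passing.

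In all, 3 of the 23 family probe sets passed at 8 h, all of them higher, where 6.89% of all probe sets passed in limma (2.75% higher and 4.14% lower). With all 23 arrays in 1 fit, 0 of the 23 passed, where 2.13% of all probe sets did. In the fit of 17 arrays 6 had an unadjusted p under 0.05, against 21.0% of all probe sets. GFP-positive arrays lay wholly above GFP-negative ones for 10 of the 23, among them all 5 inducible probe sets, and wholly below for 0, against 10.8% and 12.7% of all probe sets. The median over lead probe sets was 0.57 for the 3 inducible genes, 0.10 for the 4 constitutive genes and 0.04 for the 3 testis genes. Over all genes it was -0.006.

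At 16 h all 3 inducible genes were higher in GFP-positive than in GFP-negative cells at their lead probe sets, and no constitutive or testis member passed. HSPA1A at 200799_at read 6.36, 6.05 and 6.54 in GFP-positive cells and 5.52, 5.20 and 5.56 in GFP-negative cells. The lowest GFP-positive array lay well above the highest GFP-negative one. The GFP-negative values lay little above the medians of their arrays (5.06 to 5.10), and no measure of background was used, so no fold is given. The difference was 0.89 log2 units (SE 0.165, 95% interval 0.54 to 1.24; limma, adjusted p = 0.00530; 0.154 with all 23 arrays). It passed without each of the 6 arrays in turn, at log2 0.77 to 1.02.

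HSPA6 at 213418_at read 5.27, 5.73 and 6.61 in GFP-positive cells and 4.62, 4.96 and 4.61 in GFP-negative cells at 16 h. The groups did not overlap, and the GFP-positive arrays spread widely, with replicate 3 the highest. The GFP-negative values lay below the medians of their arrays (5.06 to 5.10), and no measure of background was used, so no fold is given. The mean log2 difference was 1.14 (SE 0.252; limma, adjusted p = 0.0160; 0.279 with all 23 arrays). Without GFP-positive replicate 3 or GFP-negative replicate 3 it did not pass (limma adjusted p = 0.0576 and 0.0578, the lower log2 being 0.77). The second HSPA6 probe set, 117_at, read 5.16, 4.76 and 5.22 against 4.50, 4.996 and 4.75, which overlapped, with a difference of 0.30 (SE 0.143; limma, adjusted p = 0.282).

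HSPH1 at 206976_s_at read 11.68, 11.78 and 11.82 in GFP-positive cells and 11.37, 11.23 and 11.26 in GFP-negative cells. Again no arrays of the groups overlapped. The difference was 0.47, or 1.39-fold (SE 0.110; limma, adjusted p = 0.0204; 0.261 with all 23 arrays). The call was lost without GFP-positive replicate 2 or 3 or GFP-negative replicate 2 or 3 (limma adjusted p from 0.0644 to 0.0823, log2 from 0.44 to 0.46). At 208744_x_at HSPH1 read 11.30, 11.18 and 10.83 against 10.997, 10.86 and 10.06, which overlapped. That difference of 0.46 (SE 0.191) did not pass (limma, adjusted p = 0.202).

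The probe sets of HSPA1A and HSPA1B without a symbol were higher in GFP-positive cells as well. 200800_s_at read 13.28, 13.40 and 13.36 in GFP-positive and 12.84, 12.89 and 12.90 in GFP-negative cells, a difference of 0.47 (SE 0.124; limma, adjusted p = 0.0388; 0.202 with all 23 arrays). 202581_at read 12.55, 12.46 and 12.53 against 12.11, 12.18 and 12.19, a difference of 0.35 (SE 0.0923; limma, adjusted p = 0.0380; 0.153 with all 23 arrays). The groups stood apart at both, but both calls were lost without any 1 of the 6 arrays (limma adjusted p from 0.0543 to 0.123, log2 from 0.33 to 0.51). At 16 h the BioB control separated the same groups, and its part in these values was not tested.

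HSPA8 read 13.42, 13.31 and 13.38 in GFP-positive cells and 13.38, 13.31 and 13.36 in GFP-negative cells at 16 h. The groups overlapped at all 4 of its probe sets, with log2 differences from -0.03 to 0.05 and 95% intervals within -0.26 and 0.21. HSPA9 differed by 0.08 (SE 0.077) at its lead probe set, HSPA4 by 0.10 (SE 0.0822) and HSPA13 by 0.23 (SE 0.0861; limma, adjusted p = 0.165). HSPA13 read 10.44, 10.46 and 10.50 against 10.32, 10.26 and 10.15, and was the only constitutive gene with a probe set whose groups did not overlap at 16 h. HSPA2, HSPA4L and HSPA1L differed by 0.20, 0.15 and -0.12 at their lead probe sets, with SE from 0.0979 to 0.128.

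**Figure D4:**
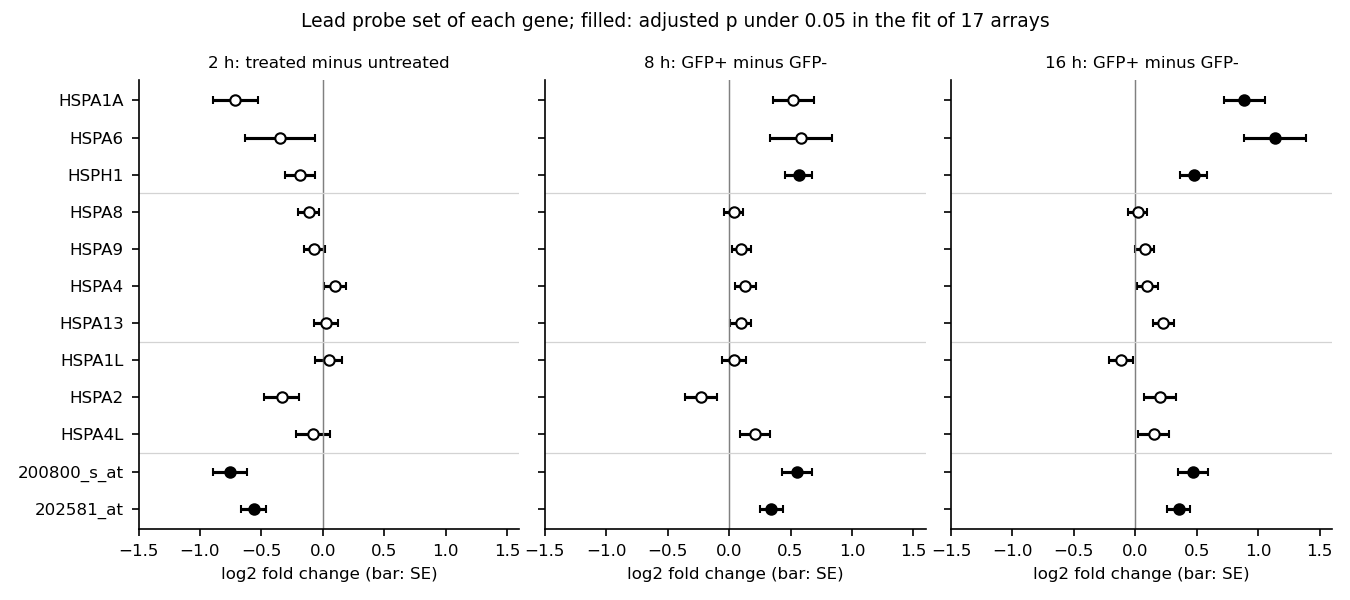
Log2 difference of each gene's lead probe set at 2, 8 and 16 h, with bars of 1 SE from the limma fit of 17 arrays; lines part inducible, constitutive and testis genes and the 2 probe sets without a symbol, and filled points have an adjusted p under 0.05 in that fit. The inducible genes lie from 0.47 to 1.14 at 8 and 16 h, and HSPA8, HSPA9, HSPA4 and HSPA13 from 0.02 to 0.23.

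The counts at 16 h were 3 of 23 family probe sets higher and 0 lower, where 4.44% of all probe sets passed in limma (2.47% higher and 1.97% lower). With all 23 arrays 0 of the 23 passed, where 0.0604% of all probe sets did. In the fit of 17 arrays 5 had an unadjusted p under 0.05, against 17.9% of all probe sets. GFP-positive arrays lay wholly above for 4 of the 23 and wholly below for 0, against 8.06% and 13.1% of all probe sets. The median over lead probe sets was 0.89 for inducible, 0.09 for constitutive and 0.15 for testis genes, and -0.03 over all genes. Over all probe sets of each class it was lower, at 0.47, 0.04 and 0.13, and -0.04 over all probe sets of the arrays. The 0.89 is that of HSPA1A at 200799_at, which averaged 5.43 in GFP-negative cells, where array medians were 5.06 to 5.10. The brighter 200800_s_at, at 12.88 there, and HSPH1 at 206976_s_at, at 11.29, each differed by 0.47. Lead probe sets of constitutive genes averaged 10.24 to 13.35 there, so the classes compared also differ in signal level.

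Whether the GFP difference changed between 8 and 16 h was tested by the interaction in the same fit. In limma 0 of the 23 probe sets passed, where 0.00183% of all probe sets did, and 0 passed with all 23 arrays; HSPA2 alone had an unadjusted p under 0.05, as did 8.88% of all probe sets. The change from 8 to 16 h was 0.37 for HSPA1A at 200799_at (95% interval -0.13 to 0.86), 0.56 for HSPA6 at 213418_at (-0.20 to 1.31) and -0.09 for HSPH1 at 206976_s_at (-0.42 to 0.24). HSPA2 moved from -0.23 to 0.20, a change of 0.43 (SE 0.181; limma, adjusted p = 0.524). These intervals include 0 for the 3 inducible genes and are wide, and a difference between the times was not detected.

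Over the 17 arrays, with the mean of each time subtracted, values of HSPA1A at 200799_at had a Pearson r of 0.908 with 202581_at, 0.867 with 200800_s_at, 0.714 with HSPH1 206976_s_at and 0.671 with HSPA6 213418_at. The second probe sets of HSPH1 and HSPA6 had r of 0.556 and 0.566, and the 4 HSPA8 probe sets from 0.334 to 0.565. Among constitutive members HSPA9 at 200691_s_at had 0.621, and HSPA9 at 200690_at had 0.86 with HSPH1 206976_s_at, so the correlations did not part inducible from constitutive members. These are descriptions: the points share the arrays and the group differences described above. Of 14785 genes, with the dimmest 40% of probe sets left out, those most like HSPA1A by this measure were ETHE1 (r = 0.894), FAM188A (0.892), PIGG (0.892), ZNF211 (0.883) and PMS2P5 (0.879). Those most like HSPH1 were DZIP3 (0.971), YME1L1 (0.952), DTL (0.948), REV3L (0.937) and KIAA0564 (0.936).

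The partners of HSP70 were read from lists of 41 genes, of which 40 were measured, each by its brightest probe set. Of 9 J-domain co-chaperones of the cytosol, 4 were higher and 1 lower in GFP-positive than in GFP-negative cells at 8 h, and 3 higher and 0 lower at 16 h. Of all genes in the same fit, 3.11% were higher and 6.25% lower at 8 h, and 3.01% higher and 2.10% lower at 16 h. With all 23 arrays 0 of the 9 passed at either time. In that fit 615 of all 20066 genes passed at 8 h and 13 at 16 h. DNAJB1, the heat-inducible HSP40 partner of HSPA1A, rose by 0.80 at 8 h (SE 0.119; limma, adjusted p = 0.000840; 0.0712 with all 23 arrays) and by 0.86 at 16 h (adjusted p = 0.000599; 0.121). DNAJB6, which holds back protein aggregation, rose by 0.39 at 8 h (SE 0.0863; limma, adjusted p = 0.0114; 0.533 with all 23 arrays) and by 0.97 at 16 h (adjusted p = 1.24e-05; 0.154). Without each array in turn, both calls at 16 h and that of DNAJB1 at 8 h passed every time, while DNAJB6 at 8 h was lost without GFP-positive replicate 2 (log2 0.33, limma adjusted p = 0.0550). DNAJB4 rose by 0.56 and 0.51 and DNAJA1 by 0.36 at 8 h, with limma adjusted p of 0.0181, 0.0394 and 0.0158 and, with all 23 arrays, 0.194, 0.315 and 0.136.

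DNAJA2 fell by 0.26 at 8 h (SE 0.0755; limma, adjusted p = 0.0463; 0.0842 with all 23 arrays). Leaving out single arrays ended the 8 h call of DNAJA1 (GFP-positive replicate 2), that of DNAJB4 (replicate 2 of either group) and that of DNAJA2 (any but GFP-positive replicate 1), and the 16 h call of DNAJB4 (replicate 2 or 3 of either group), at limma adjusted p up to 0.168 and log2 down to 0.28 for DNAJA1, 0.44 and 0.38 for DNAJB4 and -0.23 for DNAJA2. With the replicate block DNAJA2 at 8 h was lost as well (adjusted p = 0.0772), and so was DNAJB4 at 16 h (adjusted p = 0.0525).

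Of 10 nucleotide exchange factors, BAG3, an HSF1 target that links HSP70 to autophagy, rose by 0.60 at 16 h (SE 0.130; limma, adjusted p = 0.0140; 0.263 with all 23 arrays). That call was lost without GFP-positive replicate 2 or 3 or GFP-negative replicate 2 (adjusted p up to 0.0699, log2 down to 0.48). BAG5 fell by 0.34 at 8 h (SE 0.0727; limma, adjusted p = 0.00985) and still passed with all 23 arrays (adjusted p = 0.0164) and without each array in turn. The other 8 exchange factors did not pass at either time.

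Of the 4 measured genes among other HSP70 members, 0 passed at 2, 8 or 16 h. HSPA5, the HSP70 of the endoplasmic reticulum, differed by 0.19 at 8 h (SE 0.101) and 0.07 at 16 h. None of the 4 adaptors of HSP70 and HSP90 and none of the 13 HSF factors and other heat shock genes passed either in limma at any time. HSF1 differed by -0.40 at 8 h (SE 0.133; limma, adjusted p = 0.0809) and the inducible HSP90 gene HSP90AA1 by 0.13 (SE 0.0717). The small heat shock gene HSPB1 differed by -0.40 at 8 h (SE 0.152) and by 0.16 at 16 h. At 2 h, 0 of the 40 partner genes passed, where 0.154% of all genes rose and 0.424% fell.

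**Figure D5:**
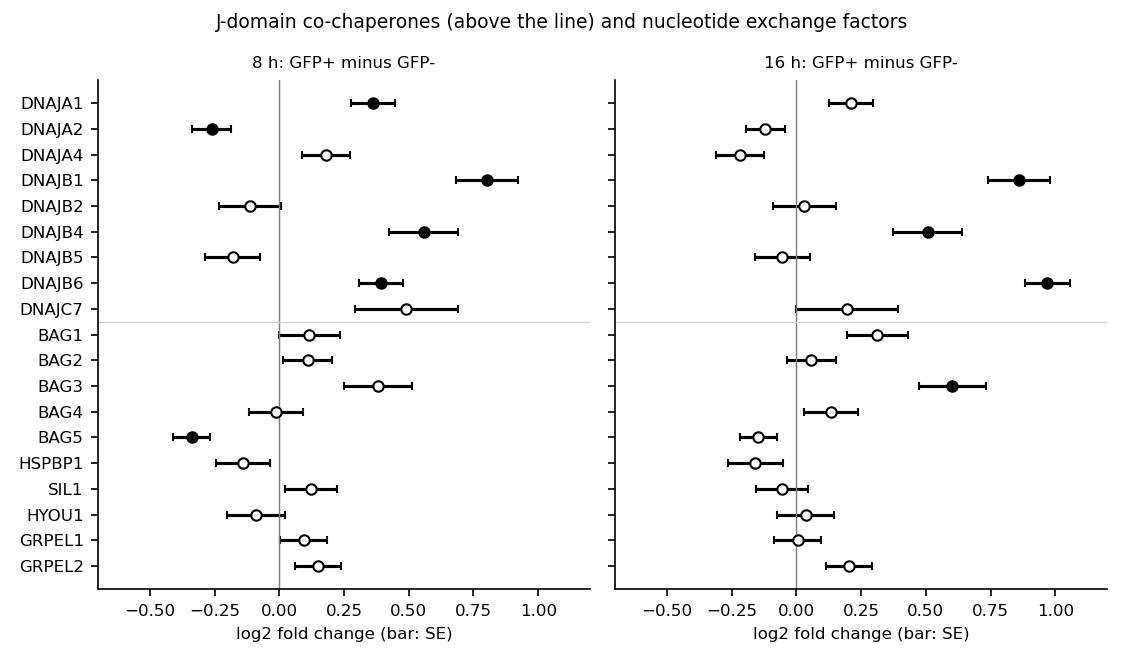
Log2 difference between GFP-positive and GFP-negative cells for J-domain co-chaperones (above the line) and nucleotide exchange factors (below it) at 8 and 16 h, with bars of 1 SE; filled points have an adjusted p under 0.05 in the limma fit of 17 arrays. DNAJB1 lies at 0.80 and 0.86 and DNAJB6 at 0.39 and 0.97.

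Markers of other cell types were set beside these results. ALB, a hepatocyte marker, read 3.05 ± 0.12 in GFP-negative and 4.42 ± 0.84 (SD, n = 3) in GFP-positive cells at 16 h (log2 1.37; limma, adjusted p = 0.00572; 0.127 with all 23 arrays) while its mean stayed below the array medians. APOA1, the other hepatocyte marker, differed by -0.11 at 16 h without passing (limma, adjusted p = 0.670). None of the 15 measured haematopoietic, stromal and endothelial markers passed at 8 or 16 h. Among the HEK293 markers, EYA1, NEFL and ENO2 fell at 8 h (log2 -0.58, -0.50 and -0.71, limma adjusted p = 0.000533, 0.00382 and 0.00133). With all 23 arrays their adjusted p was 0.00506, 0.185 and 0.00831, so NEFL did not pass. NEFL and ENO2 fell at 16 h (log2 -0.37 and -0.42, limma adjusted p = 0.0297 and 0.0426). With all 23 arrays neither passed (adjusted p = 0.418 and 0.159). NEFL also fell at 2 h (log2 -0.58, limma adjusted p = 0.0184), but not with all 23 arrays (0.440). The part of these differences in the family's values was not tested, and fewer cells of a kind and less RNA per cell cannot be told apart in such samples.

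The 24 h arrays were read apart, because the means in the authors' deposited 24 h table equal those of the arrays as labelled for 0 of 54675 probe sets, against all 54675 at 2, 8 and 16 h (tolerance 1e-06). As labelled, HSPA1A at 200799_at read 5.58, 5.19 and 6.69 in GFP-positive cells and 6.31, 6.40 and 5.77 in GFP-negative cells. HSPA6 at 213418_at read 3.82, 4.35 and 6.19 against 5.67, 5.96 and 4.14. In both genes GFP-positive replicate 3 lay with the higher and GFP-negative replicate 3 with the lower values, so the groups crossed. The groups overlapped for all 23 family probe sets, where 4.17% of all probe sets lay wholly higher and 3.14% wholly lower. In limma on the 6 arrays 0 of 23 passed, as did 0% of all probe sets, and 0 passed with all 23 arrays; 1 had an unadjusted p under 0.05, as did 2.78% of all probe sets.

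The authors' deposited 24 h table gives HSPA1A at 200799_at as 6.26 against 5.25, a log2 difference of 1.00 with a posterior probability of 0.995, and 200800_s_at as 13.10 against 12.53 with a posterior probability of 1. In the authors' deposited table at that time HSPA6 at 213418_at differed by 1.58 (posterior probability 1) and HSPH1 by 0.61 and 0.70 (posterior probabilities 0.784 and 0.873). The 4 HSPA8 probe sets lay between -0.03 and 0.10 in the authors' deposited table, while HSPA13 differed by 0.42 and 0.44 (posterior probabilities 0.391 and 0.488) and HSPA4 by up to 0.49 (0.532). At 16 h, where means and arrays match, the authors' deposited table gives posterior probabilities of 0.991 for HSPA1A at 200799_at, 0.979 for HSPA6 at 213418_at and 0.999 for HSPH1 at 206976_s_at. For the second probe sets of HSPA6 and HSPH1 the authors' deposited table gives 0.107 and 0.23 at 16 h, for HSPA13 at 202557_at 0.393, and for HSPA8 at most 0.034. At 8 h the authors' deposited table gives 0.688 for HSPA1A at 200799_at, 0.813 for HSPA6 at 213418_at and 0.0529 at 117_at, 0.993 and 0.995 for the 2 HSPH1 probe sets, and 0.454 for HSPA9 at 200690_at.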

How the data were processed

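Expression was measured on 23 arrays in 8 groups. Per the labels and the submitters' processing notes, the authors deposited log2 values made with RMA, in R 2.11.1 for 2, 8 and 16 h and in R 2.9.0, with limma named, for 24 h. RNA was taken up with Trizol, followed by a column except at 24 h. Each time appears to have been normalized apart. The authors also deposited, per the file headers, group means and log2 fold changes. Their tables also hold a posterior probability, deposited as a score between 0 and 1 whose model is not given in the sources used here. Array number limits the precision.

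Members, classes, gene lists and motifs were chosen with earlier results of these data known. The model was fitted by lmFit and eBayes of limma 3.58.1 (R 4.3.3, two-sided), with the 17 arrays of 2, 8 and 16 h in 1 fit and the 6 arrays of 24 h in another. The threshold was 0.05 for p adjusted by Benjamini-Hochberg across the 54675 probe sets, and errors are standard errors (SE) of that fit. The adjusted p of 1 fit of all 23 arrays is printed beside calls. That fit takes in the 24 h arrays, whose labels and deposited table are at odds. No filter on low values was applied. Lists used each gene's brightest probe set (20066 genes). Lead probe sets and others that passed were named. The 2 accession-matched probe sets and the partner, marker and 24 h genes named singly were chosen after their values were seen. The result of 1 HEK293 marker is not reported here. Promoter windows are RefSeq's on GRCh38.p14.

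Same-numbered arrays deviated together at 8 h (r = 0.259, 0.24 and 0.325 over probe sets), so the numbers were taken to pair the 8 h arrays. Arrays with different numbers had r from -0.272 to 0.0377 at 8 h. At 16 h r was 0.317, 0.0913 and 0.443 for the same number and from -0.409 to 0.13 for different numbers. These ranges overlap at 0.0913, while 0.317 and 0.443 lay above all values for different numbers. The numbers were not taken to pair the 16 h arrays, though a pairing there is not excluded. The main fit did not block on the replicate number at any time, including 8 h, so its p-values and counts ignore a pairing. Fits with the block are given as an alternative. At 2 and 24 h r for the same number was below 0, and the numbers were not taken to pair those arrays either. These values cannot exclude a pairing. At 2 h the 2 untreated arrays deviate as mirror images, and the 24 h labels and deposited table are at odds. Alternatives were other sets of arrays, quantile normalization, median centring, a filter, 1 probe set per gene, array weights, the replicate block and leaving out each array. On simulated data over 54675 probe sets, log2 changes of 1 and of 0.5 were planted in 100 probe sets each. Changes of 1 were found for 95%, 99% and 97% of changed probe sets (2, 8 and 16 h in that order), and changes of 0.5 for 30%, 47% and 45%. In the data 3767 and 2427 probe sets passed at 8 and 16 h, far more than were planted, so these shares need not hold there.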

Additional observations from a re-analysis of the deposited data

How the results depend on the processing

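With 2 or 3 arrays per group, simulated log2 changes of 0.5, planted in 100 probe sets, were recovered in at most 47% of cases. Smaller changes, such as most family differences, were not simulated. A probe set that did not pass is therefore not shown to be equal between groups. The count of family probe sets that passed, 0 at 2 h, 3 at 8 h and 3 at 16 h, was 0 at all of these times with all 23 arrays in 1 fit. With array weights it was 1 at 2 h and 1 at 8 h, where 1594 and 2883 of all probe sets passed. With the replicate block it was 1 at 2 h, 3 at 8 h and 4 at 16 h. The numbers were taken to pair only the 8 h arrays. Over all probe sets the block gave 338, 5123 and 3682 calls at 2, 8 and 16 h, against 298, 3767 and 2427 without it. Without single arrays the count lay between 1 and 3 at 8 h and between 1 and 3 at 16 h, and stayed 0 at 2 h, 24 h and for the interaction. The fit of all 23 arrays made 107, 1166 and 33 calls over all probe sets.

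HSPA1A at 200799_at passed at 2 h with array weights (log2 -0.70, adjusted p = 0.0145) and with the replicate block (log2 -0.79, adjusted p = 0.0416), and at 8 h with 1 probe set per gene (adjusted p = 0.0444). HSPH1 at 208744_x_at passed at 16 h with the replicate block (adjusted p = 0.0460). With each time fitted alone, calls were lost at 2 h for 200800_s_at and 202581_at (adjusted p = 0.297 for both), at 8 h for 200800_s_at (0.0870), 202581_at (0.139) and HSPA9 at 200690_at (0.141), and at 16 h for HSPA6 at 213418_at (0.106) and 202581_at (0.0845). Quantile normalization ended the calls of 202581_at at 8 h (adjusted p = 0.0557) and 16 h (0.0743) and of 200800_s_at at 16 h (0.0514). HSPA9 at 200690_at was lost with median centring (adjusted p = 0.0688), and it (0.0582), 202581_at (0.0644) and HSPH1 at 208744_x_at (0.0519) were lost at 8 h with array weights. Of the named values, 0 passing ones reversed under any alternative, and of 843 pairs of an alternative with a named value that had not passed, 56 changed its sign without passing. The causes were not tested.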
